A study of Aspergillus niger with 8 samples.

Results

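adaA, adaB, adaC and adaD are 4 neighbouring genes of the black mould Aspergillus niger that together encode a polyketide pathway. They were picked by their identifiers in the sequenced enzyme-producing strain of the species, An11g07310, An11g07320, An11g07330 and An11g07340, and are 4 of the 15431 gene rows in the files. They were singled out because they stood out under carbon starvation in these same libraries. Their levels in starvation, straw and glucose are therefore given as a description, without a test. The difference between the 2 starvation times was not named in that choice and is tested. The test is not fully independent of the choice, however, since both rest on the same starvation libraries. The 4 genes had 4675 reads at 6 h and 536 at 24 h, so a choice by high starvation values could favour the 6 h side.

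RNA was sequenced from mycelium of the laboratory strain N402, with 2 flask cultures (A and B) in each of 4 conditions. All cultures were first grown for 48 h in minimal medium with 1% glucose. For 3 of the conditions the mycelium was then washed and moved to fresh medium, where it stayed for 24 h without any carbon source (24 h starvation), for 6 h without any carbon source (6 h starvation), or for 6 h with 1% ball-milled wheat straw as the only carbon source (6 h wheat straw). The reference was the 48 h glucose culture itself, harvested before transfer. The libraries held 14635638 to 32040412 reads, of which 1.41% to 3.40% were counted on a gene, so that 205778 to 979256 reads per library carry the measurements. The 24 h starvation libraries were the shallowest, with 320375 and 205778 reads on genes. Log2 values of the A and B cultures of a condition correlated across genes with r between 0.873 and 0.943, and genes are not independent replicates.

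Filamentous fungi make polyketides with large multidomain enzymes, the polyketide synthases, and often keep the genes for a whole pathway side by side on a chromosome. Such clusters are commonly silent during growth on a good carbon source and are switched on together under particular conditions. The ada genes are known for the aromatic polyketide TAN-1612. AdaA is the non-reducing polyketide synthase that builds the carbon chain, AdaB is a metallo-beta-lactamase-type enzyme that releases and closes the product, AdaC is a flavin-dependent monooxygenase that hydroxylates it, and AdaD is an O-methyltransferase. In the RefSeq annotation the 4 genes and the 19 flanking genes found there lie on 1 chromosome in the order of their identifiers.

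On glucose and on straw the pathway was all but unread. Over the 2 straw libraries the 4 genes together received 1 read, on adaB in culture A, and over the 2 glucose libraries they received 1 read, on adaC in culture A. After 24 h of starvation they received 388 reads in culture A and 148 in culture B. After 6 h of starvation they received 3501 reads in culture A and 1174 in culture B. As a share of all reads on genes this was 0.121% (95% Wilson interval 0.110% to 0.134%) and 0.0719% (0.0612% to 0.0845%) in the 24 h starvation cultures, and 0.742% (0.718% to 0.767%) and 0.328% (0.309% to 0.347%) in the 6 h starvation cultures. The 4 libraries without starvation do not overlap the 4 starvation libraries for any of the genes. This separation restates how the genes were chosen, and the share of all genes that separate the same libraries was not counted. Intervals and limits here cover counting error only, since reads are not independent molecules.

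**Figure D1:**
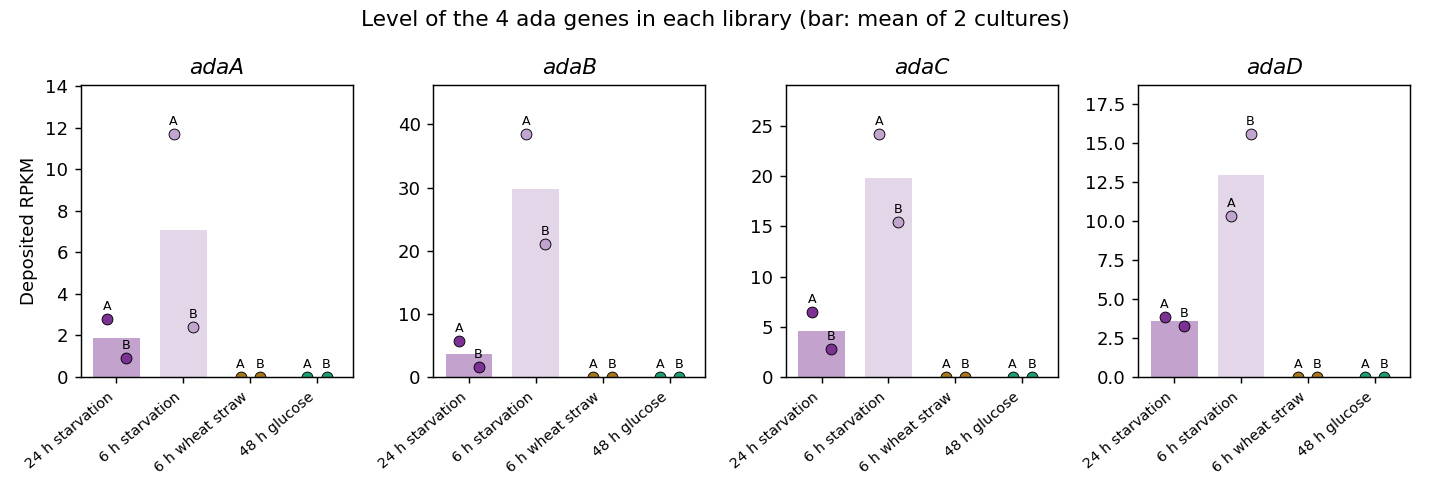
Deposited RPKM (reads scaled to gene length and library reads, vertical axis, a separate scale for each gene) of adaA, adaB, adaC and adaD in 24 h starvation, 6 h starvation, 6 h wheat straw and 48 h glucose. Points are the A and B cultures and bars their mean. Straw and glucose lie at or next to 0 in every panel, the 6 h starvation bars are the highest, and for adaA the 6 h B culture (2.41) lies below the 24 h A culture (2.81).

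The synthase gene adaA had 2.81 and 0.907 RPKM in the A and B cultures of 24 h starvation, 11.7 and 2.41 RPKM in those of 6 h starvation, and no read on straw or glucose. RPKM are reads scaled to gene length and to all reads of the library, so that levels of different genes can be compared. Its 6 h A culture was 4.87 times its 6 h B culture in RPKM, the widest such gap of the 4 genes at 6 h, and the 2 starvation times overlapped. At 24 h the gap was 3.10 times for adaA and 3.65 times for adaB.

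adaB, for the releasing enzyme, had 5.75 and 1.58 RPKM after 24 h of starvation and 38.5 and 21.1 RPKM after 6 h, against 0.0459 RPKM and no read on straw and no read on glucose. It was the most abundant of the 4 at 6 h. By RPKM it ranked 25th of all genes with a read in the 6 h A culture and 79th in the 6 h B culture, but 418th and 1229th in the 24 h cultures.

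adaC, for the monooxygenase, had 6.48 and 2.76 RPKM after 24 h and 24.2 and 15.5 RPKM after 6 h of starvation, against no read on straw and 0.0363 RPKM and no read on glucose. Its rank by RPKM was 359th and 666th at 24 h, and 43rd and 117th at 6 h.

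adaD, for the methyltransferase, had 3.83 and 3.28 RPKM after 24 h and 10.3 and 15.6 RPKM after 6 h of starvation, and no read on straw or glucose. It was the one gene of the 4 with more RPKM in the B than in the A culture at 6 h, and its cultures were the closest to each other at 24 h.

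Because glucose and straw gave almost no reads, most ratios are lower bounds, taken against 3 reads over both libraries of the reference. After 24 h of starvation the levels were at least 82.8-fold higher than on glucose for adaA, at least 54.4-fold for adaB and at least 41.5-fold for adaD. For adaC, with its single glucose read, the ratio of pooled reads was 282 (95% counting interval 50.0 to 11201). After 6 h of starvation they were at least 315-fold higher than on glucose for adaA, at least 443-fold for adaB and at least 151-fold for adaD, and the pooled ratio for adaC was 1256 (225 to 49646). Against straw at the same 6 h, the bounds were 348-fold for adaA, 441-fold for adaC and 167-fold for adaD, and the pooled ratio for adaB, with its single straw read, was 1569 (281 to 61999). Between straw and glucose no ratio can be given, since both lie at or under 3 reads for all 4 genes. The 24 h starvation sample has no straw partner of the same age here.

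The edgeR quasi-likelihood fit, which takes all 8 libraries and 6357 genes, called a gene when its Benjamini-Hochberg adjusted p was below 0.05 and its mean RPKM differed at least 3-fold. All 4 ada genes were called higher in 24 h starvation than on glucose, as were 12.8% of all genes tested. All 4 were called higher in 6 h starvation than on glucose, as were 9.36% of all genes, and higher in 6 h starvation than on straw, as were 5.13%. These counts restate how the genes were chosen, and the comparisons share the glucose or the 6 h starvation libraries. They count transcripts in whole mycelium, in which more producing cells and more RNA per cell cannot be told apart.

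Between the starvation times all 4 genes were called lower at 24 h than at 6 h, where 3.13% of all genes were called lower and 3.93% higher. The mean of adaB was 3.66 ± 2.95 RPKM at 24 h and 29.8 ± 12.3 RPKM at 6 h (SD, n = 2 cultures each). Its log2 fold change was -3.57 (SE 0.55), with an adjusted p of 0.000336 from edgeR's quasi-likelihood test, and both 24 h cultures lay below both 6 h cultures. It was the largest change of the 4 genes, 8.14-fold in mean RPKM.

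adaC averaged 4.62 ± 2.64 RPKM at 24 h and 19.8 ± 6.21 RPKM at 6 h, a log2 fold change of -2.61 (SE 0.47, edgeR adjusted p = 0.00134). adaD averaged 3.55 ± 0.388 RPKM at 24 h and 12.9 ± 3.72 RPKM at 6 h, a log2 fold change of -2.22 (SE 0.40, edgeR adjusted p = 0.00163). For both genes the cultures of the 2 times did not overlap. adaD rested close to the 3-fold limit: without the 6 h B culture its log2 fold change was -2.12 with an edgeR adjusted p of 0.00261, but its mean RPKM no longer differed 3-fold.

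The call on adaA was the least secure. Its mean was 1.86 ± 1.34 RPKM at 24 h and 7.06 ± 6.58 RPKM at 6 h, a log2 fold change of -2.53 (SE 0.64, edgeR adjusted p = 0.0179). Without the 6 h A culture the log2 fold change was -0.69 (edgeR adjusted p = 0.543), and without the 24 h B culture it was -2.12 (edgeR adjusted p = 0.142). With DESeq2 in place of edgeR it was -2.49 with an adjusted p of 0.684. adaB and adaC kept their call with DESeq2 and without any single culture.

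**Figure D2:**
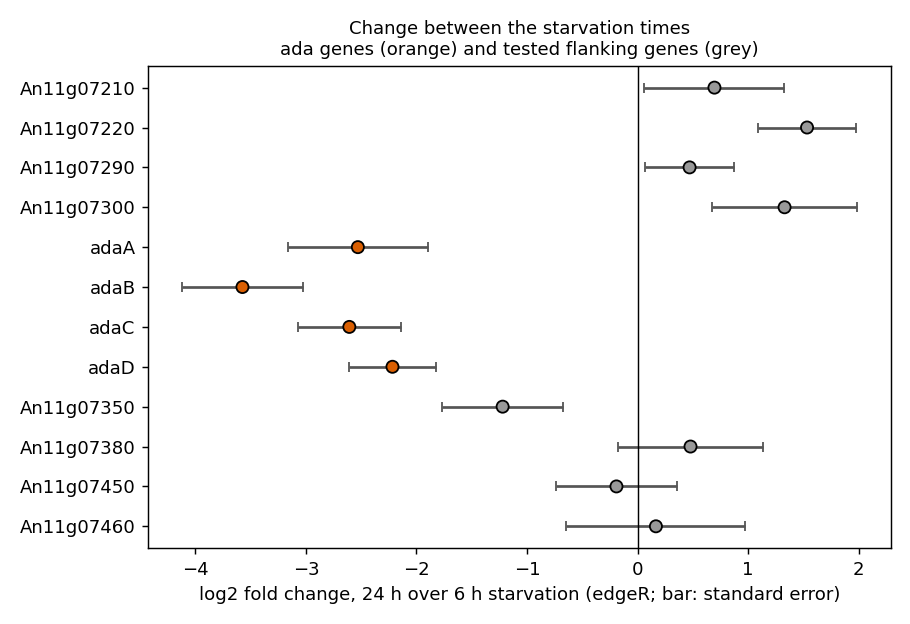
Log2 fold change of 24 h over 6 h starvation from edgeR (horizontal axis, bars are the standard error) for the 4 ada genes in orange and the 8 flanking genes with enough reads to test in grey, in the order of their identifiers from top to bottom. The ada genes lie between -3.57 and -2.22. Of the flanking genes An11g07350, next to adaD, and An11g07450 lie below 0, at -1.22 and -0.19.

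Since RPKM here divides by all reads, and the share of reads on genes differed between libraries (2.04% and 1.41% at 24 h, 1.47% and 1.79% at 6 h), the values were also scaled to the reads on genes in place of all reads. On that scale adaA had 137 and 64.5 at 24 h and 796 and 135 at 6 h. adaB had 281 and 112 at 24 h and 2618 and 1179 at 6 h. adaC had 317 and 196 at 24 h and 1646 and 864 at 6 h, and adaD had 187 and 233 at 24 h and 701 and 871 at 6 h. The means were 4.61-fold lower at 24 h than at 6 h for adaA, 9.65-fold for adaB, 4.89-fold for adaC and 3.74-fold for adaD. The 24 h A culture of adaA still lay just above its 6 h B culture.

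The 4 genes were not read in fixed proportion. adaA took 32.5% (95% Wilson interval 28.0% to 37.3%) of the reads of the 4 genes in the 24 h A culture and 25.7% (19.3% to 33.3%) in the 24 h B culture, against 30.7% (29.2% to 32.2%) in the 6 h A culture and 11.8% (10.0% to 13.7%) in the 6 h B culture. adaD took 11.6% (8.78% to 15.2%) and 24.3% (18.1% to 31.8%) in the 24 h A and B cultures, against 7.08% (6.28% to 7.98%) and 19.9% (17.7% to 22.3%) in those of 6 h. For adaA and adaD, and for adaC too, the intervals of the A and B cultures of 6 h did not overlap, with more adaA and less adaC and adaD in culture A.

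The releasing enzyme's gene separated the times rather than the cultures. adaB took 22.2% (18.3% to 26.6%) and 14.9% (10.0% to 21.5%) of the reads at 24 h, against 33.6% (32.1% to 35.2%) and 34.3% (31.7% to 37.1%) at 6 h, so that its interval in either 24 h culture lay below that in either 6 h culture. adaC took 33.8% (29.2% to 38.6%) and 35.1% (27.9% to 43.1%) at 24 h, against 28.6% (27.1% to 30.1%) and 34.0% (31.3% to 36.7%) at 6 h. By length-corrected level the most abundant gene was adaB in both 6 h cultures, adaC in the 24 h A culture and adaD in the 24 h B culture, with 2 cultures per time and no test of this order.

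**Figure D3:**
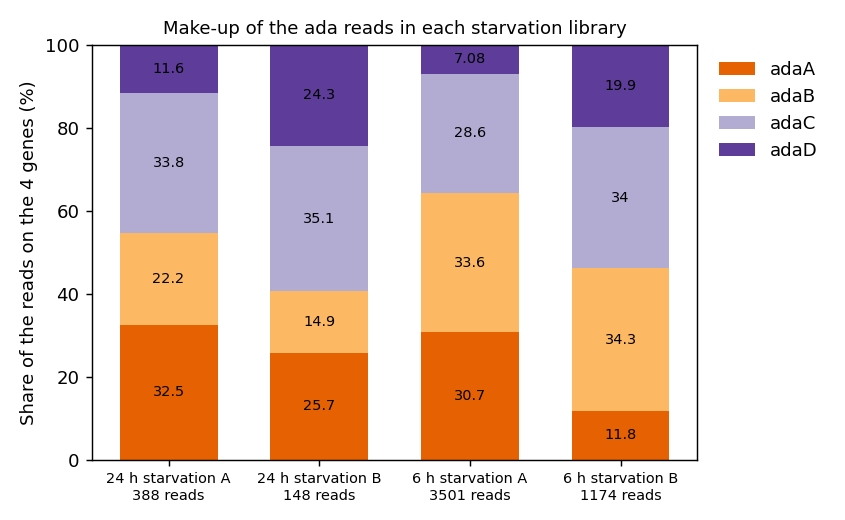
Share of the reads on adaA, adaB, adaC and adaD (vertical axis, percent of the reads on the 4 genes together, not corrected for gene length) in the A and B cultures of 24 h and 6 h starvation, with the number of reads under each bar. adaB takes 22.2% and 14.9% at 24 h and 33.6% and 34.3% at 6 h, and adaA is smallest in the 6 h B culture, at 11.8%.

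The flanking genes were mostly low or unread. Of the 10 nearest identifiers on each side, 9 had no read in any library, 1 more had under 10 reads over the 8 libraries, and 8 had enough reads to be tested. In the 6 h A culture all 4 ada genes stood above every flanking gene, the highest of which was An11g07300 at 3.85 RPKM. In the 6 h B culture adaB, adaC and adaD did, while adaA, at 2.41 RPKM, was below An11g07220 at 3.45 RPKM. At 24 h the highest gene of the stretch was a flanking one in both cultures: An11g07220, at 11.1 RPKM in culture A, and An11g07300, at 14.2 RPKM in culture B, were above all 4 ada genes, whose highest values there were 6.48 RPKM (adaC) and 3.28 RPKM (adaD).

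**Figure D4:**
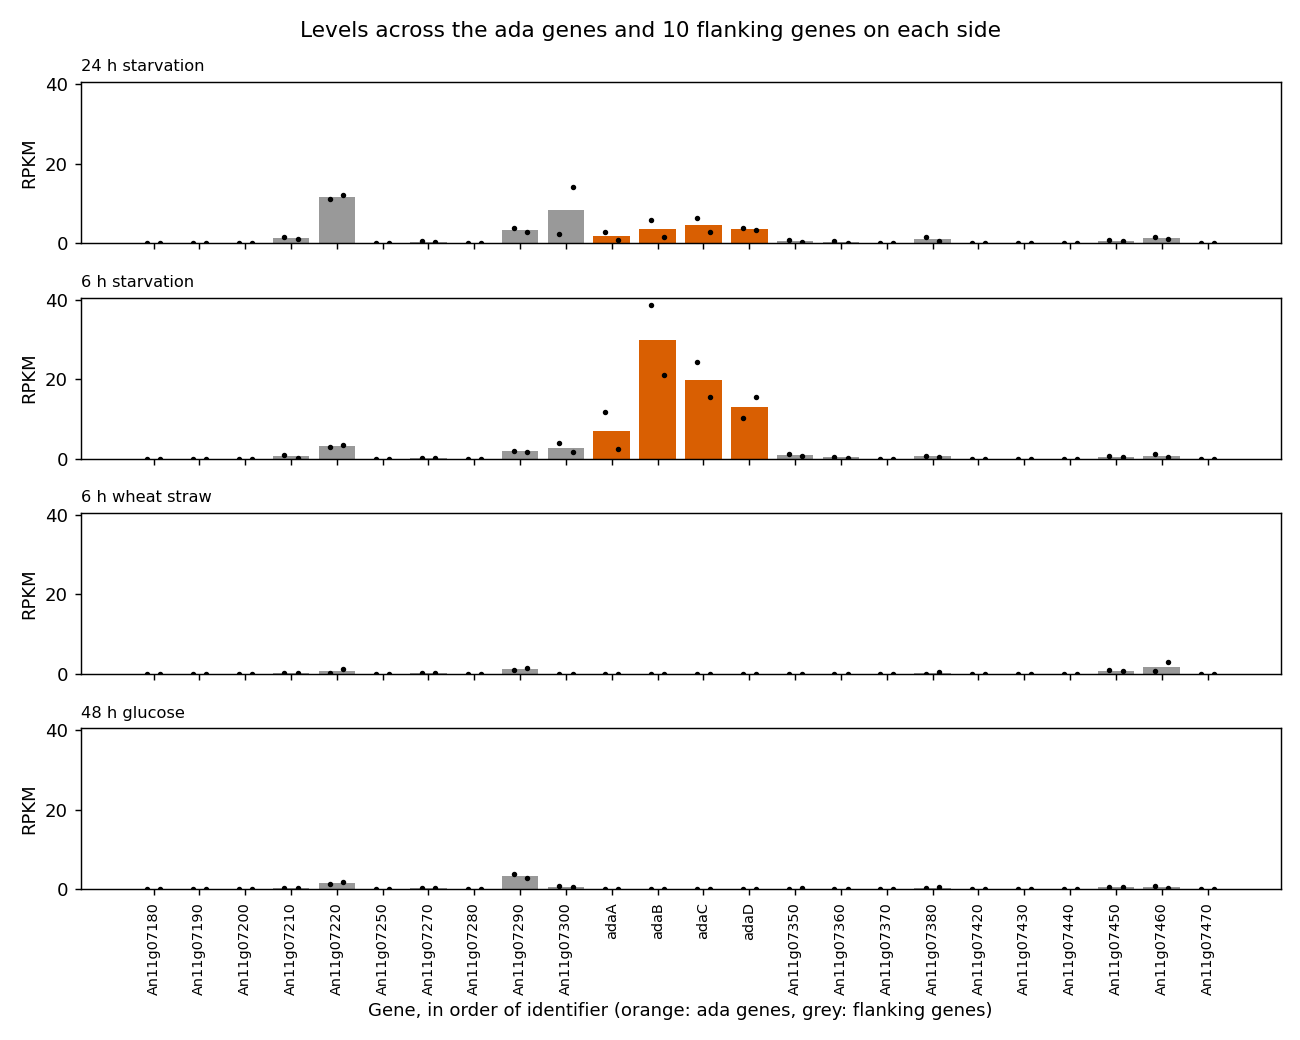
RPKM of the ada genes (orange) and of 10 flanking genes on each side (grey) in the order of their identifiers, from top to bottom in 24 h starvation, 6 h starvation, 6 h wheat straw and 48 h glucose, all on 1 vertical scale. Bars are means of 2 cultures and dots the A and B cultures. The 6 h panel holds a block of 4 high genes with low neighbours on both sides, and in the 24 h panel An11g07220 and An11g07300 stand above that block.

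An11g07350 lies next to adaD, and no gene symbol is given for it in the sources used here. It had 25 and 10 reads after 24 h and 77 and 27 reads after 6 h of starvation, against 2 and 5 on straw and 3 and 14 on glucose. At 0.515 ± 0.292 RPKM at 24 h and 0.848 ± 0.337 RPKM at 6 h (SD, n = 2 each) it was below all 4 ada genes in each starvation library. It was called higher than on glucose at 24 h (log2 fold change 2.19, SE 0.64) and at 6 h (3.41, SE 0.60). It was also called higher in 6 h starvation than on straw (4.64, SE 0.68). An11g07350 reached the read minimum for testing through starvation libraries alone. That selection favoured these calls, so they are not read as a result. The 24 h call was lost without the glucose A culture, with a log2 fold change of 1.55, and without the 24 h A culture, with 1.75. Its difference between 24 h and 6 h was -1.22 (SE 0.55), with an edgeR adjusted p of 0.223. Unlike the ada genes it was read in all 8 libraries.

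On the other side An11g07300, next to adaA, had 51 and 287 reads after 24 h and 170 and 45 reads after 6 h of starvation, against 1 and 2 on straw and 23 and 19 on glucose. The 2 cultures of each starvation time ran in opposite order, and at 24 h they differed most. It was called higher than on glucose at 24 h (log2 fold change 4.44, SE 0.76, edgeR adjusted p = 0.000148) and at 6 h (3.11, SE 0.73, edgeR adjusted p = 0.00288), higher in 6 h starvation than on straw (6.79, SE 1.03, edgeR adjusted p = 9.25e-05), and lower on straw than on glucose (-3.68, SE 1.13, edgeR adjusted p = 0.0199). Without the 6 h A culture it was no longer called at 6 h against glucose (log2 fold change 2.11). Without the straw A or the straw B culture the call of straw against glucose was lost (log2 fold change -3.70 and -3.59). Between 24 h and 6 h it changed by 1.33 (SE 0.65, edgeR adjusted p = 0.282), and its sign turned to -0.97 without the 24 h B culture.

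Further out, An11g07220 had 134 and 136 reads after 24 h and 71 and 53 reads after 6 h of starvation, against 3 and 26 on straw and 20 and 38 on glucose. It was the one flanking gene called between the starvation times, and it was higher at 24 h (log2 fold change 1.53, SE 0.44, edgeR adjusted p = 0.0382). That call was lost without the 6 h A, the 6 h B or the 24 h B culture, with log2 fold changes of 1.56, 1.46 and 1.15. An11g07210 had 23 and 13 reads after 24 h and 25 and 4 reads after 6 h of starvation, against 3 and 5 on straw and 5 and 6 on glucose. It was called higher at 24 h than on glucose (2.85, SE 0.71). It was also called higher at 6 h than on straw (2.58, SE 0.76). That call against straw was lost with DESeq2, without either straw culture and without the 6 h A culture (0.98). An11g07210 too reached the read minimum through starvation libraries alone, so neither call is read as a result.

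Counted together, 4 of the 8 tested flanking genes were called higher in 24 h starvation than on glucose, as were 12.8% of all genes. In 6 h starvation 2 were higher than on glucose, as were 9.36% of all genes, and 4 higher than on straw, as were 5.13%. On straw 1 was called lower than on glucose, where 11.2% of all genes were lower. The medians of the 8 log2 fold changes were 2.02, 1.80, 2.15 and -0.75 in these comparisons, where the medians over all genes tested were -0.03, 0.00, -0.01 and 0.01. Of the 8, An11g07210, An11g07350 and An11g07380 reached the read minimum for testing through starvation libraries alone, so the counts and medians of starvation against glucose or straw are not support for a change of the region. At 6 h against glucose the count of 2 depended on the RPKM scale, since 2 more genes had an adjusted p below 0.05 but less than 3-fold higher mean RPKM. An11g07210 averaged 0.559 RPKM at 6 h of starvation and 0.269 on glucose, and An11g07220 (edgeR adjusted p = 0.00365) averaged 3.17 and 1.59 RPKM. The count was 4 with RPKM taken per reads on genes. Of the other flanking genes among the nearest 5 on each side, An11g07290 had 45 and 33 reads at 24 h, 47 and 26 at 6 h, 19 and 36 on straw and 62 and 55 on glucose and was not called in these comparisons. Its log2 fold change against glucose was 0.60 for 24 h and 0.13 for 6 h of starvation. An11g07380 had 25 and 8, 19 and 10, 1 and 16, and 6 and 14 reads in the same order of conditions. An11g07270 had 49 reads over all libraries and An11g07360 had 10, too few to be tested, and An11g07250, An11g07280, An11g07370 and An11g07420 had none.

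The gene whose profile was most like that of the ada genes was an unnamed model. Likeness was the Pearson correlation of log2 CPM, counts scaled to library size, with the mean of the 4 genes over the 8 libraries, given as a description because 4 libraries lie near 0 and 4 high. The model Cscaffold4000574, for which the files give no An identifier, came first with r = 0.988. It had 43 and 12 reads at 24 h and 373 and 48 reads at 6 h of starvation, and no read on straw or glucose. Its RPKM followed adaA library by library, at 1.13 and 1.05 times the adaA value in the 24 h A and B cultures and 1.15 and 1.16 times in the 6 h A and B cultures. Of the reads on both models it took 25.4% (95% Wilson interval 19.5% to 32.5%) and 24.0% (14.3% to 37.4%) at 24 h, and 25.8% (23.6% to 28.1%) and 25.8% (20.1% to 32.5%) at 6 h. These shares agree within counting error, whereas the share of adaA among the 4 ada genes did not.

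The length behind the deposited RPKM was 2862 bases for the model on which adaA was counted and 861 bases for Cscaffold4000574, together 3723 bases, while the RefSeq gene for An11g07310 is 5382 bases long. For adaB the 2 lengths were 954 and 1005 bases, for adaC 1289 and 1245 bases, and for adaD 750 bases in both. The RefSeq figure is a gene length and the other is the length behind the RPKM. The 2 need not be like measures, so their difference is not the size of a missing stretch. Models of the numbered set to which Cscaffold4000574 belongs follow the order of the An identifiers in 232 of 234 neighbouring pairs. This order alone does not place Cscaffold4000574 next to adaA. The files give no coordinates, so whether this model covers a further stretch of adaA was not tested. adaD was counted on a model carried over from the strain with An identifiers and the other genes on models of the strain to which the reads were mapped.

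**Figure D5:**
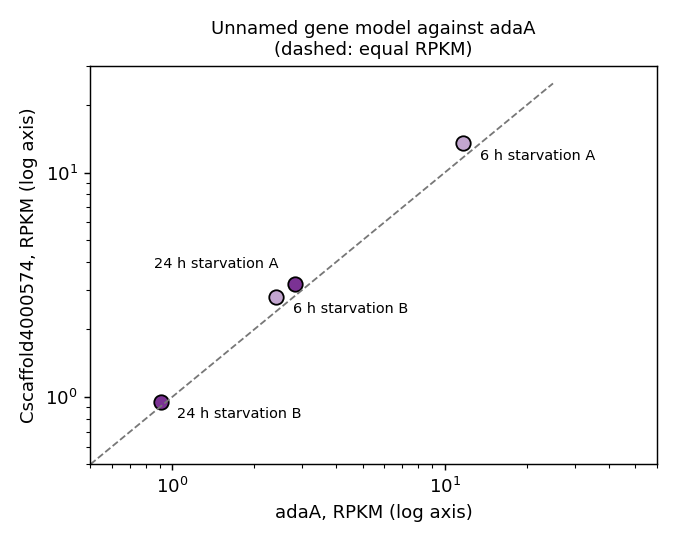
RPKM of the unnamed model Cscaffold4000574 (vertical axis, log scale) against RPKM of adaA (horizontal axis, log scale) in the A and B cultures of 24 h and 6 h starvation, with a dashed line where both are equal. The 4 points lie just above the line, at ratios of 1.05 to 1.16, over levels of adaA between 0.907 and 11.7.

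After it the most alike genes were An09g00520 (r = 0.987), An04g01760 (0.984), An14g06700 (0.983), An18g05480 (0.982), An02g04910 (0.976), An15g01620 (0.976), An18g05500 (0.975), An13g01510 (0.974) and An12g04230 (0.970). An09g00520 shared the silence of the ada genes, with 90 and 32 reads at 24 h and 165 and 156 reads at 6 h of starvation and none on straw or glucose. An18g05480 reached the most reads, with 410 and 104 at 24 h and 1546 and 599 at 6 h, but it was also read on straw (19 and 11) and glucose (5 and 6). Every gene listed here but An09g00520 was read on straw or glucose. On glucose An02g04910 had 76 and 59 reads, An18g05500 33 and 35, An15g01620 16 and 14, and An14g06700 13 and 13. Their log2 fold changes between 24 h and 6 h were -0.83, -0.42, -0.79 and -0.57. An04g01760, An13g01510 and An12g04230 had at most 4 reads in a glucose library. The list depended on the measure: by Spearman's rho 0 of the 10 recurred, against 5 by log2(RPKM + 0.1). Of the flanking genes An11g07350 came closest, 25th of 6353 genes with r = 0.955, and An11g07300 was 405th with r = 0.801.

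Other genes too were read in starvation alone. By limits set after the values had been seen, and placed so that the 4 ada genes meet them, at most 1 read over the 4 straw and glucose libraries and at least 20 reads in each starvation library, 9 genes qualified, out of 1715 genes with at least 20 reads in each starvation library. Besides the 4 ada genes they were An09g00520, An09g01690, An11g07050, An12g05390 and An05g01120. Cscaffold4000574, with no read on straw or glucose, was left out by its 12 reads in the 24 h B culture, so the number depends on the limits. An09g01690 had 31 and 188 reads at 24 h and 562 and 94 at 6 h, and An11g07050 had 130 and 70 reads at 24 h and 34 and 23 at 6 h.

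Other polyketide synthase genes did not share one course. Of 10 listed from the annotation in the study's tables, 5 had enough reads to test. Of these 5, 3 passed the test upwards in 24 h starvation against glucose, as did 12.8% of all genes. In 6 h starvation 3 were higher and 1, An12g02730, lower than on glucose, where 9.36% of all genes were higher and 15.0% lower, and 3 were higher than on straw, where 5.13% of all genes were. 1 of these, An13g02430, reached the read minimum through the 6 h starvation libraries alone. The call on An12g02730 against glucose (log2 fold change -1.81) was lost without the glucose B or the 6 h B culture (-1.65 and -1.60). An13g02430, An03g05140, An15g02130, An15g04140 and An12g02730 were printed in those tables for having changed in these libraries. The counts of the list and the p-values of these genes are therefore no independent evidence of direction. An03g05140 had 153 and 67 reads at 24 h, 134 and 104 at 6 h, 108 and 78 on straw and 8 and 2 on glucose, and was called higher than on glucose in straw too (log2 fold change 4.41, SE 0.64, edgeR adjusted p = 2.87e-05). An15g02130 had 64 and 90 reads at 24 h, 142 and 199 at 6 h, 41 and 43 on straw and 47 and 44 on glucose, and was higher at 6 h of starvation than on glucose (2.78, SE 0.48, edgeR adjusted p = 0.000176), though not 3-fold in mean RPKM without the 6 h B culture (2.34).

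Between the starvation times the other synthase genes differed. An13g02430 had no read at 24 h, against 20 and 22 reads at 6 h (at least 8.70-fold lower against 3 reads over both 24 h libraries). It reached the read minimum for testing through the 6 h starvation libraries alone, so its lower value at 24 h is given without a test. An12g02730 had 100 and 57 reads at 24 h and 7 and 4 at 6 h and was called higher at 24 h (log2 fold change 4.14, SE 0.49, edgeR adjusted p = 2.55e-05). An09g05730, the gene fwnA for the synthase of the dark spore pigment, had 392 and 182 reads at 24 h and 86 and 56 at 6 h, and was also called higher at 24 h (2.32, SE 0.39, edgeR adjusted p = 0.000578). An15g04140 was read mostly on glucose, with 13 and 12 reads there, none at 24 h and 2 and none at 6 h of starvation.

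Of the 15 other secondary metabolism genes listed in the study's tables, all of them chosen there because they changed in these libraries, 6 passed upwards and 6 downwards in 24 h starvation against glucose, where 12.8% of all genes tested were higher and 17.5% lower. In 6 h starvation 7 were higher and 6 lower than on glucose, against 9.36% and 15.0% of all genes. Compared with straw 2 were higher and 1 lower, against 5.13% and 7.27% of all genes. On straw 7 were higher and 6 lower than on glucose, against 10.8% and 11.2% of all genes. An03g00650 had no read and 1 read at 24 h, no read and 5 reads at 6 h, and no read and 1 read on straw. With 185 and 539 reads on glucose it was read almost wholly there (log2 fold change at 24 h against glucose -8.06, SE 0.95). An06g01320 likewise had none at 24 h and none and 1 at 6 h of starvation, against 74 and 66 reads on glucose. An03g00650 and An06g01320 reached the read minimum through the glucose libraries alone, so their lower values elsewhere are given without a test. An05g00220 and An03g03520 were lower at 24 h than on glucose by log2 fold changes of -5.32 and -3.79. An16g06720, which reached the read minimum through starvation libraries alone, had 144 and 146 reads at 24 h and 9 and 13 on glucose, and An14g02970 and An04g08440 were higher at 24 h than on glucose by log2 fold changes of 4.30 and 3.23.

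Among the regulators of spore formation, brlA (An01g10540), which starts the programme, had 35 and 9 reads at 24 h and 8 and 1 at 6 h of starvation, none on straw and 1 and 3 on glucose. Between 24 h and 6 h its log2 fold change was 2.55 (SE 0.79). abaA (An01g03750), which acts after brlA, had 22 and 12 reads at 24 h and 6 and none at 6 h of starvation. On straw it had 8 and 4 reads and on glucose 6 and 8. Its log2 fold change between 24 h and 6 h was 2.82 (SE 0.88). Neither difference between the starvation times passed the threshold. Both genes reached the read minimum for testing through the 24 h libraries alone. Their higher values at 24 h than at 6 h, and their calls at 24 h against glucose (log2 fold changes 4.45 and 2.42), are therefore not read as a result. wetA (An01g08900) had 4 and 1 reads at 24 h, 2 and 3 at 6 h, 7 and 13 on straw and 3 and 8 on glucose, too few to test. At 6 h, when the ada genes were highest, brlA and abaA together had no more than 14 reads in a library, and their part in the ada result was not tested.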

How the data were processed

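The authors sequenced rRNA-depleted RNA as SOLiD paired reads, mapped them with LifeScope 2.5.1 and counted uniquely aligned forward reads of mapping quality 20 or more per gene model with HTSeq. They deposited the counts and RPKM values computed from them for 1 culture per file. The deposited RPKM divide by all reads of the file, including the 5 rows of reads on no gene, which took 96.6% to 98.6% of the reads and stayed out of library sizes and tests. Counts were fitted with edgeR 4.0.16 (R 4.3.3), TMM factors (0.896 to 1.157), filterByExpr and condition as the one term over all 8 libraries. Lower bounds of folds against an unread group used a floor of 3 counts over that group. DESeq2 1.42.0, other scalings, filters, thresholds and windows, and leaving out each culture were tried as alternatives.

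The genes, the lists and the rule for naming genes (the 4 genes, flanking genes that were called or among the nearest 5 on each side, called list genes up to 6 a list, the 10 most alike genes) were chosen with earlier results of these data known. brlA, abaA and wetA were listed as regulators of spore formation. The sources do not say that letters A and B pair cultures. Replicates are duplicate flask cultures. The names adaA to adaD came with the choice of the genes and not from the annotation. Neighbours were taken as the nearest identifiers among the gene rows. Their order on the chromosome was checked in RefSeq assembly ASM285v2, in which 23 of the 24 genes were found. Its build differs from that of the files, so no coordinates are given.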

Additional observations from a re-analysis of the deposited data

Results flagged for a closer look

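The difference between the 2 starvation times passed the test for 5 of the 12 genes of the region that were tested. Over all genes tested, 3.13% were called lower at 24 h and 3.93% higher. adaA was lower at 24 h than at 6 h by a log2 fold change of -2.53, adaB by -3.57, adaC by -2.61 and adaD by -2.22. An11g07220, a flanking gene, was the higher at 24 h, by a log2 fold change of 1.53. The 4 ada genes and An11g07220 are therefore on opposite sides of 0 within 1 stretch of chromosome. The calls on adaA, adaD and An11g07220 were each lost when certain single cultures were left out, and that on adaA also with DESeq2.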

How the results depend on the processing

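The 4 ada genes were called higher in starvation than on glucose or straw under all 51 combinations of comparison and alternative setting. They were chosen for being high in starvation and reached the read minimum through starvation libraries alone. These calls therefore restate that choice and are no support for it. Between the starvation times 63 of 68 alternative values of the 4 genes kept their call. The exceptions were adaA with DESeq2 (-2.49), adaA with only the 2 conditions in the fit (-2.47, edgeR adjusted p = 0.0946), and values without single cultures, which ran between -3.33 and -0.69 for adaA and between -2.40 and -2.08 for adaD. The numbers of flanking genes called were 4 at 6 h against glucose with the threshold on edgeR's fold change, with the adjusted p alone or with RPKM per reads on genes, in place of 2. With 5 neighbours on each side they were 2 at 24 h against glucose, 2 at 6 h against straw and 0 at 24 h against 6 h, where the threshold on edgeR's fold change also left 0. Without single cultures they ran between 1 and 3 at 6 h against glucose, 2 and 4 at 6 h against straw, 0 and 1 for straw against glucose, and 0 and 2 at 24 h against 6 h. Signs turned only without single cultures. The lowest and highest log2 fold changes were -0.017 and 2.29 (An11g07210, 24 h against 6 h), -0.15 and 0.38 (An11g07290, 6 h against glucose), -0.97 and 2.31 (An11g07300, 24 h against 6 h), -1.92 and 0.09 (An11g07350, straw against glucose), -2.51 and 0.25 (An11g07380, straw against glucose) and -0.16 and 0.84 (An11g07380, 24 h against 6 h). Over all genes, the calls at 6 h of starvation against glucose numbered 595 higher, and 951, 1177 and 908 under those same 3 thresholds. The last follows from its construction, since 1.47% and 1.79% of reads fell on genes at 6 h of starvation, against 2.97% and 2.99% on glucose. For the other changes the cause was not tested. The sources do not say whether letters A and B pair cultures. Their deviations correlated with r between -0.0664 and 0.276 for the 6 pairs of conditions, and not every pair was over 0.1, so the letters were not used as pairs. With the letter as a replicate block, adaA changed by -2.17, adaB by -3.62, adaC by -2.58 and adaD by -2.21, and no call on the ada genes was lost. The 10 most alike genes shared 5 with those by log2(RPKM + 0.1) and 0 with those by Spearman's rho. Each condition had 2 cultures, and the starvation libraries held 148 to 3501 reads on the ada genes.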
